A study of Mus musculus with 5 samples.

Results

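The genes described here are the 5 subunits of the transcription factor NF-kappaB (Nfkb1, Nfkb2, Rel, Rela and Relb) and 5 genes that restrain or feed back on its pathway (Nfkbia, Nfkbiz, Tnfaip3, Birc3 and Traf1). They were chosen by symbol. All 10 had a row among the 17638 genes of the deposited table. All 10 also passed a filter of a mean normalised read count of at least 10, which left 14339 genes for the test. The libraries were made from cells carrying the surface protein CD31 (Pecam1), labelled as endothelial. The cells came from hearts of mice 2 months old on a C57BL/6 background, 5 days after myocardial infarction. The comparison sets 3 control libraries against 2 libraries of the genotype Tbx1cko, described in the series as a knockout of the T-box factor gene Tbx1 in endothelium. No source used here states the driver of the deletion, the deleted part of Tbx1 or the alleles of the controls. The labels do not tie the libraries to separate animals either. The p-values below thus reflect the spread from library to library, which may be technical.

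NF-kappaB proteins bind DNA as dimers of 2 subunits, and in resting cells IkappaB proteins hold most dimers in the cytoplasm. Signals from receptors of tumour necrosis factor, interleukin-1 or microbial products activate the IKK kinase complex, which marks IkappaB for destruction and lets the dimers enter the nucleus. There they switch on inflammatory genes, in endothelium among them the adhesion molecules that capture leukocytes. They also switch on several of their own inhibitors, which end the response.

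The promoters of some members carry binding motifs for NF-kappaB itself, and stretches that hold such matches near the start are shown here because those genes are both part of the pathway and textbook examples of genes it induces. Promoter windows from RefSeq on GRCm38.p6, 250 bases before to 50 bases after a transcription start, were found for 7 of the 10 members. Nfkb1, Relb and Nfkbiz had no window in that table. Each window was searched on both strands for the kappaB consensus. The table gives 3 windows for Nfkb2, 2 for Tnfaip3 and 1 for each other member. All windows of Nfkb2, those of Rel and Nfkbia and 1 of Tnfaip3 held a match, and those of Rela, Birc3 and Traf1 held none. Of the 27025 genes in the table, 5.14% had a window with the consensus. A match describes the letters only and is neither evidence of binding nor of its absence. Bases are counted back from the start, with -1 the base just before it. Capitals mark the consensus matches, each stretch is written 5′ to 3′ on the strand of its gene, and that strand is minus for Nfkbia, Rel and Tnfaip3 and plus for Nfkb2. The stretches lie at chr12:55492649-55492847 for Nfkbia and chr11:23770971-23771169 for Rel, both outside annotated exons. Those of Nfkb2 lie at chr19:46304693-46304713 and chr19:46304721-46304735, inside exons annotated by GENCODE, and those of Tnfaip3, outside them, at chr10:19015521-19015540 and chr10:19015412-19015427.
Nfkbia, bases -200 to -2: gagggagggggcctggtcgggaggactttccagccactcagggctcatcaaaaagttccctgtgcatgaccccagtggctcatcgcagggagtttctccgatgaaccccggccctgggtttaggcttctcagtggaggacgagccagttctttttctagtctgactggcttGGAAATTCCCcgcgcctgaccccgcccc
Rel, bases -200 to -2: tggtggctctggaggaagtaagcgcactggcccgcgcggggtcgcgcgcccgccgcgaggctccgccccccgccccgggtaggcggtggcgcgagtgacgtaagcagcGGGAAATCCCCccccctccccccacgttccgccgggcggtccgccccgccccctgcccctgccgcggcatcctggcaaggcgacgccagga
Nfkb2, bases -44 to -24: gtcacGGGAATTCCCCccctc
Nfkb2, bases -16 to -2: cgaaaGGGGCTTTCC
Tnfaip3, bases -130 to -111: acgcgGGGACACCCCggggc
Tnfaip3, bases -17 to -2: ccatcGGAAATCCCCc
Rel had overlapping matches in both orientations from base -92 to base -82. In Nfkbia 1 match lay 20 to 29 bases before the start, on the strand opposite to the gene. Tnfaip3 had 1 match close to the start and another more than 100 bases before it. The stretches of Nfkb2 come from its first window, and its other windows held further matches, not printed here, at chr19:46305459-46305468 and chr19:46305705-46305714.

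Tbx1 itself was lower in the libraries labelled Tbx1cko, with normalised read counts of 64.4, 72.7 and 69.6 in controls 1 to 3 and 18.3 and 17.3 in Tbx1cko 1 and 2. Its log2 difference was -1.89 (SE 0.30), with an adjusted p of 0.762 in limma over all genes, and -1.85 without control replicate 2 (adjusted p = 0.214). In limma with all 5 libraries the adjustment gave this same 0.762 to genes of unlike unadjusted p. Examples are 0.00101 for Tbx1, 0.0634 for Relb and 0.256 for Nfkb1. Recovered reads per library ranged from 14689782 to 18617284. Control replicate 2 stood apart, correlating with the others at r of 0.859 to 0.889 across genes, against 0.980 to 0.988 among the other 4 libraries. Its deviation followed the GC content of transcripts (Spearman rho 0.822 across 13771 genes, which are not independent replicates). Log2 differences of the members and of the other pathway genes are therefore given below with and without it. The marker Pecam1 had 33715 to 43313 normalised reads, and all 12 endothelial markers were tested. All 14 leukocyte markers were tested too, so RNA of leukocytes was present, as given at the end. Being tested means only a mean of at least 10, so it does not give the share of endothelial RNA. The leukocyte marker Lyz2 had 29682 to 53428, which overlapped Pecam1. Every other leukocyte marker lay below Pecam1 in each library. In bulk libraries such as these, fewer cells of a type and less RNA per cell cannot be told apart.

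Levels of different members were compared as RPKM, recovered reads scaled by the length of the longest coding transcript and by the library total. Nfkbia, which encodes IkappaB-alpha, the inhibitor that is destroyed and resynthesised in each round of signalling, was the most abundant, at an RPKM of 430.1 to 594 in the 5 libraries. Nfkbiz, which encodes the nuclear coregulator IkappaB-zeta, followed at 93.0 to 127. Tnfaip3, which encodes the ubiquitin-editing enzyme A20, stood at 68.4 to 110. Rela, the p65 subunit that activates transcription, ranged from 58.7 to 117, so these 3 genes overlapped. Nfkb1, the precursor of p50, had 42.3 to 52.9, Nfkb2, the precursor of p52, 33.0 to 54.2, and Relb, the main partner of p52, 28.8 to 50.4. The ubiquitin ligase gene Birc3, which encodes cIAP2, had 26.3 to 43.6, which overlapped Relb and Nfkb2. Rel, which encodes c-Rel, a subunit best known from lymphoid and myeloid cells, had 18.8 to 24.7 in 4 libraries and 6.36 in control replicate 2. Traf1, an adaptor that joins TNF receptors to cIAP proteins, had the lowest mean, with 9.88 to 12.3. The first 4 places and the last, by the mean without control replicate 2, were the same with the length of all annotated exons in place of the transcript, while the order between them changed. Among the 5 subunits, Rela made up 31.4% to 32.7% of the summed per-length level in 4 libraries and 41.6% in control replicate 2. Rel made up 9.57% to 12.9% in those 4 and 2.27% in control replicate 2.

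**Figure D1:**
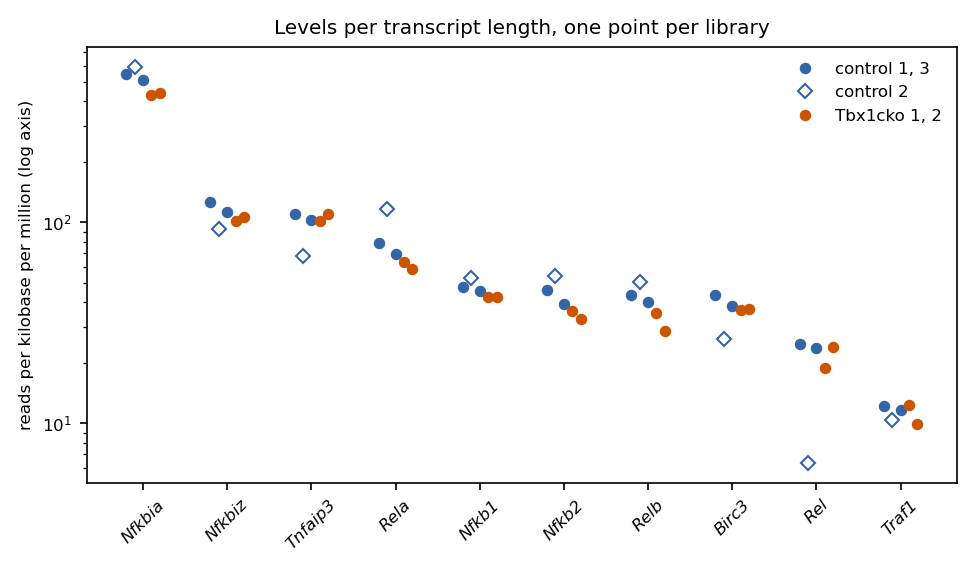
RPKM (log axis) of the 10 members, 1 point per library, ordered by the mean over 5 libraries. Nfkbia lies at or above 430.1 in each library, and the open diamond of control replicate 2 falls to 6.36 for Rel while the other libraries lie between 18.8 and 24.7.

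The question for each member was whether its level differed with the Tbx1 genotype. No member passed the limma threshold of an adjusted p of 0.05, where 0% of all 14339 genes tested passed. At an unadjusted p under 0.05 limma counted 0 members and 1.74% of all genes, and edgeR and DESeq2 with all 5 libraries also called 0 members, against 0% and 0.0279% of all genes. The fitted sign was lower in Tbx1cko for 7 of 10 members, against 47.6% of all genes. For 5 members the groups were apart, with Tbx1cko lower each time, while 13.9% of all genes were lower without overlap and 14.2% higher. Over the members the median log2 difference was -0.17, and over all genes tested it was 0.03. Since the members were chosen with earlier results of these data known, these counts are a description.

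Positions are those of GENCODE M21 on GRCm38, and each member is a protein-coding gene. Among the subunits, Rela (chromosome 19, 5637483 to 5648130, plus strand) had 3547, 5435 and 3099 normalised reads in controls 1 to 3 and 2801 and 2608 in Tbx1cko 1 and 2. Every control lay above both Tbx1cko libraries, and control replicate 2 lay far above the other controls. Controls averaged 4027 ± 1240.1 (SD, n = 3) and Tbx1cko 2705 ± 137 (SD, n = 2). The log2 difference was -0.53 (SE 0.29, 95% interval -1.25 to 0.18), with a limma adjusted p of 0.762. Leaving out control replicate 2 gave -0.29 (95% interval -0.57 to -0.02), with an adjusted p of 0.621 and the groups still apart. 

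Relb and Nfkb2 belong to the non-canonical branch of the pathway, in which the kinase NIK triggers processing of p100 to p52. Relb (chromosome 7, 19606217 to 19629438, minus strand) was counted at 1599.9, 1906 and 1439.6 in controls 1 to 3 against 1269 and 1040.5 in the Tbx1cko pair. Both Tbx1cko libraries lay below the lowest control. The log2 difference of Relb was -0.51 (SE 0.22, 95% interval -1.06 to 0.04), with a limma adjusted p of 0.762, and without control replicate 2 it was -0.40 (adjusted p = 0.504). Nfkb2 (chromosome 19, 46304320 to 46312385, plus strand) was counted at 2954, 3572 and 2471 in controls 1 to 3 against 2257 and 2077 in the Tbx1cko pair. Its groups did not overlap either, at means of 2999 ± 552 and 2167 ± 128. The log2 difference of Nfkb2 was -0.45 (SE 0.22), with a limma adjusted p of 0.762, and it was -0.32 without control replicate 2 (adjusted p = 0.608). Correction for GC content with all libraries moved it to -0.07, Rela to -0.17 and Relb to -0.13. After that correction 8 of 10 members were lower, against 51.4% of the genes with a GC value. Exons of Nfkb2 share 830 bases with genes annotated on the opposite strand, 1 of them Psd, and no source used here states the strand setting of the counting, so its count is uncertain to that extent.

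Nfkb1 (chromosome 3, 135584655 to 135691547, minus strand) varied least among the subunits, 1.31-fold between its highest and lowest library. It was counted at 3242, 3731 and 3067 in controls 1 to 3 against 2841 and 2849 in the Tbx1cko pair, with the Tbx1cko libraries below each control. The log2 difference was -0.23 (SE 0.18, 95% interval -0.68 to 0.22), with a limma adjusted p of 0.762. Leaving out control replicate 2 gave -0.15 (adjusted p = 0.828).

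The direction of Rel depended on a single library. It was counted at 3065, 813 and 2883 in controls 1 to 3 against 2277 and 2941 in the Tbx1cko pair, so control replicate 2 lay far below every other library and the groups overlapped. The value of that library rests on 884 reads, whose exact Poisson interval of 95%, which covers counting error only, ran from 760.4 to 869 normalised reads. The log2 difference was 0.42 (SE 0.63, 95% interval -1.15 to 1.997), with a limma adjusted p of 0.792. With control replicate 2 left out it was -0.20 (95% interval -0.51 to 0.11, adjusted p = 0.81), and after GC correction with all libraries it was -0.29. Rel (chromosome 11, 23736847 to 23770970, minus strand) has the transcripts with the lowest GC content of the members, 42.5%.

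**Figure D2:**
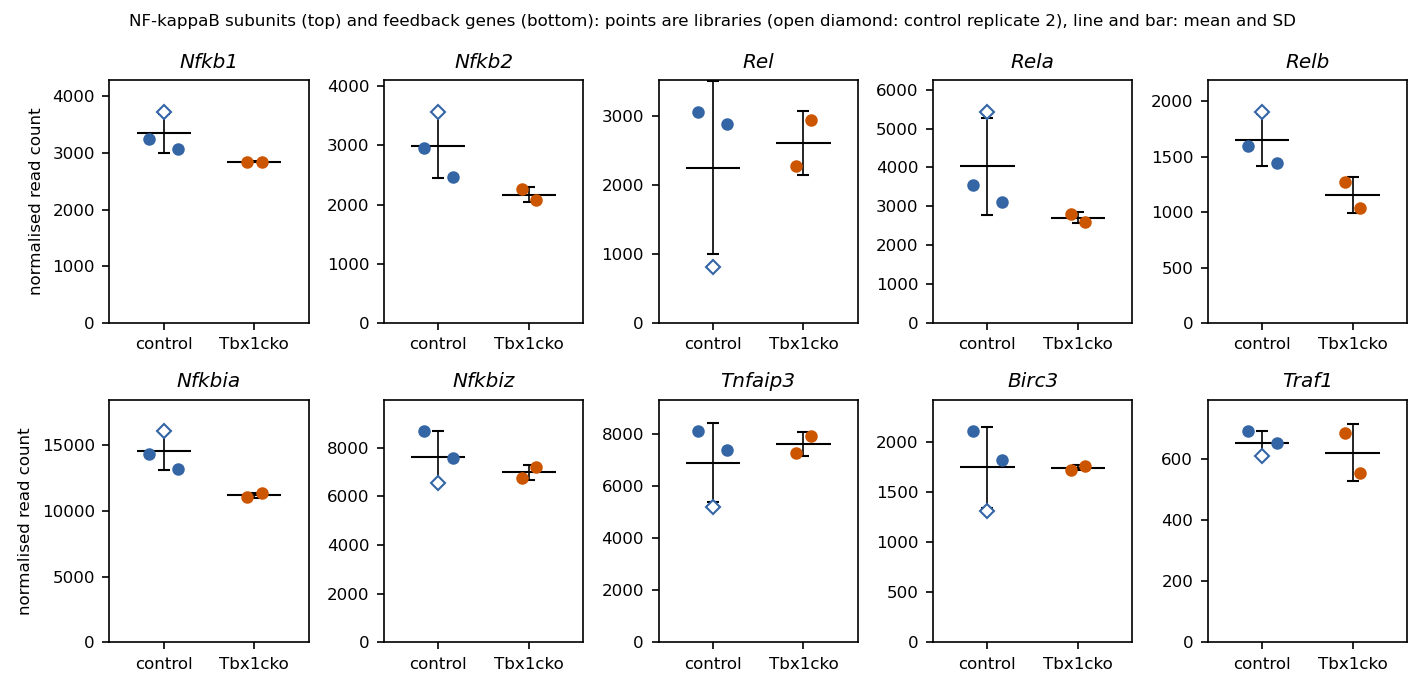
Normalised read counts of the 10 members in each library (axes from 0), with the group mean and SD and an open diamond for control replicate 2. Both Tbx1cko points lie below every control for Nfkb1, Nfkb2, Rela, Relb and Nfkbia, and Rel shows 813 in control replicate 2 against 2277 to 3065 elsewhere.

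Of the inhibitors, Nfkbia had 14331, 16052 and 13190.1 normalised reads in controls 1 to 3 and 11031 and 11319 in Tbx1cko 1 and 2. The Tbx1cko libraries lay close together and below every control. Controls averaged 14524 ± 1441 (SD, n = 3) and Tbx1cko 11175 ± 203 (SD, n = 2), and the log2 difference was -0.37 (SE 0.17, 95% interval -0.80 to 0.05), with a limma adjusted p of 0.762. Without control replicate 2 it was -0.30 (95% interval -0.59 to -0.01, adjusted p = 0.646), and after GC correction with all libraries -0.17. Nfkbia (chromosome 12, 55489410 to 55492647, minus strand) is the shortest of the genes.

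Nfkbiz, which works in the nucleus on a subset of NF-kappaB target genes, was counted at 8670, 6550.0 and 7584 in controls 1 to 3 against 6767 and 7193 in the Tbx1cko pair. Control replicate 2 was the lowest of the 5 libraries, and the groups overlapped. The log2 difference of Nfkbiz was -0.11 (SE 0.19, limma adjusted p = 0.811). Without that library both Tbx1cko values lay below both controls, at a log2 difference of -0.22 (adjusted p = 0.757). It lies on chromosome 16, from 55811375 to 55838899, on the minus strand.

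Tnfaip3 showed no separation between the groups with or without control replicate 2. A20 removes and replaces ubiquitin chains on signalling proteins and so limits NF-kappaB activity. The gene (chromosome 10, 19000910 to 19015657, minus strand) was counted at 8098, 5178 and 7389 in controls 1 to 3 against 7275 and 7920.2 in the Tbx1cko pair. Its log2 difference was 0.17 (SE 0.25, limma adjusted p = 0.791). Leaving out control replicate 2 gave -0.03 (95% interval -0.30 to 0.25, adjusted p = 0.983).

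Birc3 and Traf1, which work together at TNF receptors, also overlapped between the groups. Birc3 (chromosome 9, 7848699 to 7873186, minus strand) was counted at 2105, 1309 and 1819 in controls 1 to 3 against 1722 and 1763 in the Tbx1cko pair. Its log2 difference was 0.03 (SE 0.26, limma adjusted p = 0.971), and without control replicate 2, the lowest library, it was -0.17 (adjusted p = 0.821) with the groups apart. Traf1 (chromosome 2, 34941750 to 34961772, minus strand) was counted at 692, 611 and 654 in controls 1 to 3 against 687 and 555 in the Tbx1cko pair. The Tbx1cko libraries of Traf1 held the second highest and the lowest value. Its log2 difference was -0.08 (SE 0.21, limma adjusted p = 0.881), and without control replicate 2 it was -0.12 (adjusted p = 0.895).

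When control replicate 2 was left out, all 10 members had a lower fitted value in Tbx1cko, against 46.7% of all genes tested, with a median log2 difference of -0.21 over the members and 0.02 over all genes. In 7 members the groups were apart with Tbx1cko lower, against 17.8% of all genes, and in 0 members with Tbx1cko higher, against 19.7%. In limma 0 members passed, against 0.0209% of all genes. At an unadjusted p under 0.05 there were 4, Nfkb2, Rela, Relb and Nfkbia, all lower, against 4.07% of all genes lower at that p. DESeq2 without this library called 0 members and 0.544% of all genes. After GC correction of the 4 libraries all 10 members were still lower, at a median of -0.19, against 47.9% of the 13771 genes with a GC value. Without this library log2 differences still fell with rising GC content (Spearman rho -0.312 across these genes, and -0.731 with all libraries). Nfkb2, Rela, Relb and Nfkbia have the highest GC content of the members. The correction moved them from -0.32, -0.29, -0.40 and -0.30 to -0.17, -0.16, -0.26 and -0.25, in that order. The part of GC content in these values was not tested.

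**Figure D3:**
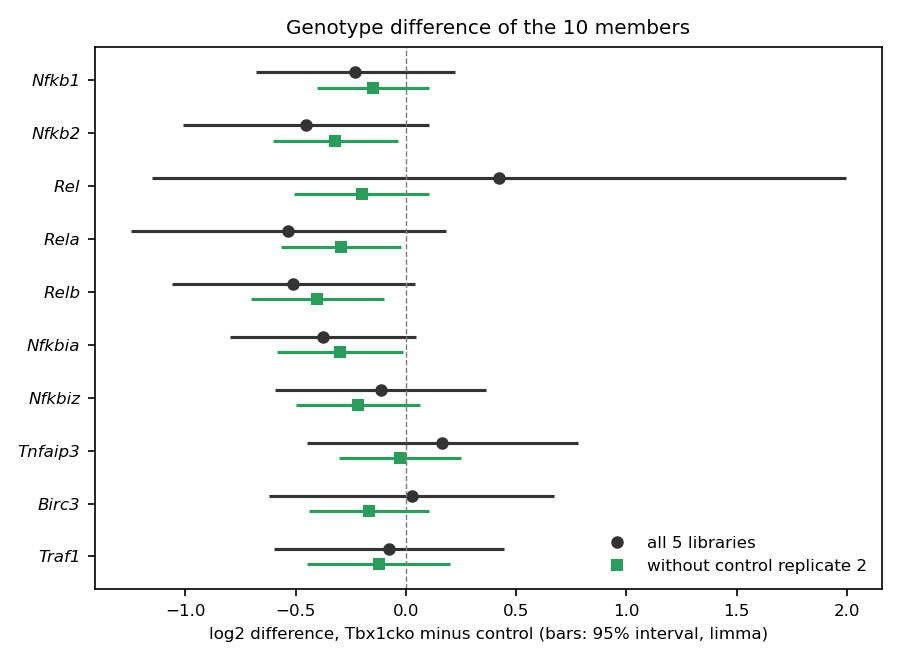
Log2 difference of each member, Tbx1cko minus control, with its 95% interval from limma, for all 5 libraries (black circles) and without control replicate 2 (green squares). Without that library every point lies below 0, the intervals are narrower, and those of Nfkb2, Rela, Relb and Nfkbia exclude 0 before adjustment over genes.

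How far control replicate 2 departed from the other controls differed between members in step with their GC content. Its value divided by the mean of controls 1 and 3 was 0.273 for Rel, 0.667 for Birc3, 0.669 for Tnfaip3 and 0.806 for Nfkbiz, the 4 members with the lowest GC content, 42.5% to 49.1%. The ratio was 0.908 for Traf1 and 1.18 for Nfkb1, at 52.9% and 51.0%. It was 1.17 for Nfkbia, 1.25 for Relb, 1.32 for Nfkb2 and 1.64 for Rela, the 4 members with the highest GC content, 54.2% to 59.1%. Over the 10 members Pearson's r was 0.906 and Spearman's rho 0.927 between the log2 of this ratio and GC content. All 10 points share the same libraries, and this is a description. With this library the members split into those with a raised and those with a lowered control mean, while without it the spread between the highest and lowest of 4 libraries was 1.11-fold to 1.54-fold for each member.

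**Figure D4:**
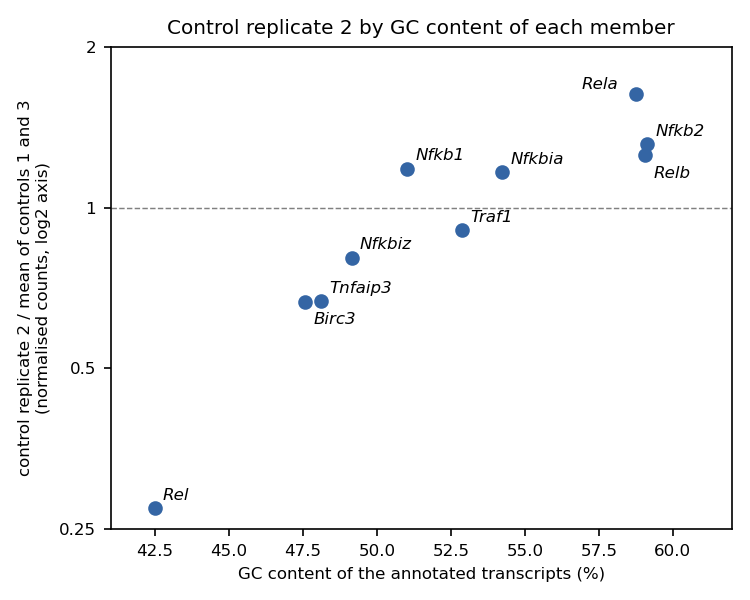
Normalised count of control replicate 2 divided by the mean of controls 1 and 3 (log2 axis) against the GC content of each member's annotated transcripts, 1 point per member. The points run from Rel at 0.273 and 42.5% GC to Rela at 1.64 and 58.8% GC.

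The other genes of the pathway were read from lists, 82 genes in all, of which 79 were tested. Tnfrsf13c and Csf2 fell under the filter and Ccl20 had no row. In limma 0 of the 79 passed with all libraries, as did 0% of all genes. At an unadjusted p under 0.05 there were 3 lower and 1 higher, where 1.74% of all genes were counted in either direction. Of the 79, 39 were lower, against 47.6% of all genes, with a median log2 difference of 0.00, close to the 0.03 of all genes. Without overlap 16 were lower and 9 higher, against 13.9% and 14.2% of all genes. Without control replicate 2, 45 were lower, against 46.7% of all genes, at a median of -0.05. The groups were then apart with Tbx1cko lower in 23 and higher in 14, against 17.8% and 19.7% of all genes. Without that library limma called 1 of the 79, the adhesion receptor gene Selp, against 0.0209% of all genes. DESeq2 called 5 (Bcl3, Sele, Selp and Il6 lower, Bcl2l1 higher), against 0.544% of all genes.

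The other IkappaB proteins had 4 of 4 members lower, at a median log2 difference of -0.22, with 0 past the limma threshold. Without control replicate 2, 3 of 4 were lower, at a median of -0.16. Bcl3, a nuclear IkappaB that binds p50 and p52 dimers, was counted at 1758, 2303 and 1192 in controls 1 to 3 against 916 and 936 in the Tbx1cko pair, with no overlap. Its log2 difference was -0.87 (SE 0.32, limma adjusted p = 0.762), and DESeq2 without control replicate 2 gave -0.69 (adjusted p = 0.0494). Nfkbib and Nfkbie, cytoplasmic inhibitors like Nfkbia, had log2 differences of -0.32 and -0.12, and -0.18 and -0.14 without control replicate 2. Nfkbid, a nuclear one, had -0.03 and turned to 0.13 without that library. After GC correction with all libraries only Bcl3 of the 4 stayed lower, at -0.48, and the list median was 0.10.

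The IKK complex and its upstream kinases had 6 of 13 members lower, at a median of 0.01, with 0 past the threshold in either direction, and 5 lower at a median of 0.06 without control replicate 2. Map3k14, which encodes NIK, the kinase of the non-canonical branch, was counted at 902, 1139 and 652 in controls 1 to 3 against 517 and 556 in the Tbx1cko pair, a log2 difference of -0.71 (SE 0.29, limma adjusted p = 0.762) that was -0.52 without control replicate 2. Ikbkg, the regulatory subunit NEMO, had 498, 285 and 448 against 533 and 576, with Tbx1cko higher and no overlap. Its difference was 0.47, and 0.23 without that library, with the groups still apart. Tab2 and Map3k7, which encode a subunit and the kinase of the TAK1 complex, had differences of 0.42 and 0.48 that became 0.15 each. Tab2 was higher without overlap in either case, and the groups of Map3k7 overlapped. Receptors and proximal adaptors had 13 of 18 tested members lower, at a median of -0.18, and 12 lower at a median of -0.07 without control replicate 2. Of these, Rnf31 and Rbck1, parts of the ligase that builds linear ubiquitin chains, had log2 differences of -0.61 and -0.45 with all libraries, and -0.26 and -0.16 without control replicate 2. Traf2 had -0.39 and the TNF receptor gene Tnfrsf1b -0.20, and -0.23 and -0.17 without that library. All 4 had a limma adjusted p of 0.762 with all libraries. After GC correction with all libraries 10 of the 18 receptors and adaptors were lower, at a median of -0.01. The same correction gave 5 of 13 lower for the IKK list, at a median of 0.08.

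The other negative regulators had 5 of 14 members lower, at a median of 0.09, with 0 past the threshold, and 6 lower at a median of 0.08 without control replicate 2. After GC correction 8 were lower at a median of -0.04 with all libraries, and 8 at -0.03 without control replicate 2. Tnip1, which encodes a partner of A20, was counted at 2098, 2326 and 1916 in controls 1 to 3 against 1671 and 1484 in the Tbx1cko pair, a log2 difference of -0.42 (SE 0.19, limma adjusted p = 0.762) that was -0.35 without control replicate 2. Zc3h12a, an RNase that degrades inflammatory messages, had a difference of -0.46, and -0.30 without that library. The deubiquitinase genes Usp21 and Cyld had -0.39 and 0.60, which became -0.13 and 0.13. Cyld was higher in Tbx1cko without overlap in either case, and the groups of Usp21 overlapped.

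The NF-kappaB target genes had 11 of 30 tested members lower, at a median of 0.12, and 19 lower at a median of -0.19 without control replicate 2. After GC correction 16 were lower at a median of -0.06 with all libraries, and 20 at -0.22 without control replicate 2. Selp, P-selectin, was counted at 3774, 3379 and 3472 in controls 1 to 3 against 1364 and 1789 in the Tbx1cko pair, a log2 difference of -1.18 with all libraries (limma adjusted p = 0.762) and -1.21 without control replicate 2 (limma adjusted p = 0.0203). Icam1, the leukocyte adhesion molecule, was counted at 11938, 15027 and 10714 in controls 1 to 3 against 7072 and 8926 in the Tbx1cko pair, which did not overlap, at a log2 difference of -0.65 (SE 0.22, limma adjusted p = 0.762), and -0.51 without control replicate 2. Tnf, the cytokine that starts the canonical pathway, went the other way. It was counted at 702, 846 and 1041 in controls 1 to 3 against 1586 and 1238 in the Tbx1cko pair, with no overlap. Its difference was 0.72 (SE 0.26), and 0.71 without control replicate 2 (limma adjusted p = 0.33). Csf3, which encodes G-CSF, had a difference of -0.71, and -0.81 without that library. DESeq2 without control replicate 2 gave -0.87 for Sele, E-selectin (adjusted p = 0.0025), -0.77 for Il6 (adjusted p = 0.0224) and 0.81 for the survival gene Bcl2l1 (adjusted p = 0.00247). Those 3 genes were named after their values were seen. With all libraries limma gave -0.47 for Sele and 0.53 for Bcl2l1, each at an adjusted p of 0.762. For Il6 it gave 0.81, the opposite sign, since control replicate 2 had 132 normalised reads where the other controls had 3991 and 2634.

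**Figure D5:**
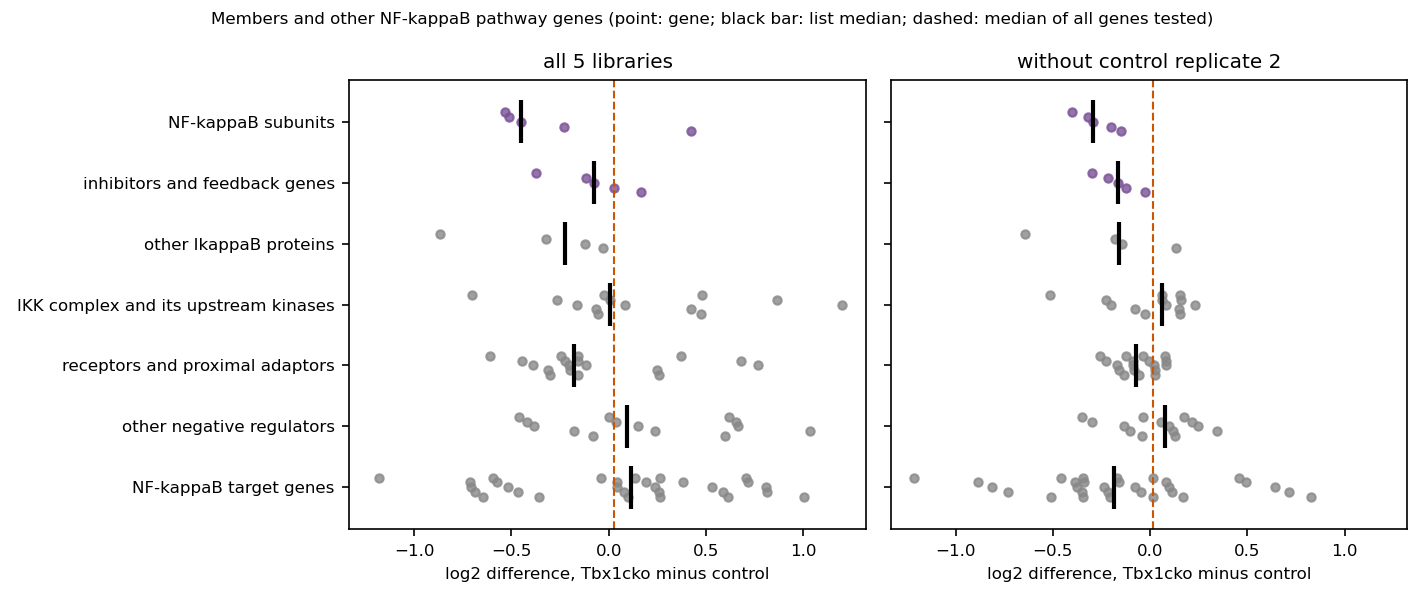
Log2 difference, Tbx1cko minus control, of each tested gene in the 7 lists, with all libraries (left) and without control replicate 2 (right). Black bars are list medians, which for the subunits are -0.45 and -0.29, and the dashed line is the median of all genes tested, 0.03 and 0.02.

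Each member's pattern over the 5 libraries was also set beside those of the 9 other members and the 79 pathway genes tested, by the root mean square difference of log2 values centred on each gene's mean. Tnfaip3 and Birc3 were nearest to each other, at 0.0781. Nfkb1 was nearest to Tnip2, at 0.0271, Nfkb2 to Nfkbib, at 0.0698, and Rela to Csf1, at 0.0810. Both Relb and Nfkbia were nearest to Tnip1, at 0.0712 and 0.0699. Nfkbiz was nearest to Sod2, at 0.095, and Traf1 to Nfkbie, at 0.0784. Rel had the least close neighbour, Birc2, at 0.143. These distances include control replicate 2, whose deviation followed GC content, and they describe 5 libraries only. The part of GC content in them was not tested, and a near pattern is not evidence of shared regulation.

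Markers of other cells and of handling are given beside these values. With all libraries 0 of them passed the limma threshold. Of the 12 dissociation stress genes, such as Fos, Jun and Hspa1a, all 12 were lower in Tbx1cko without overlap with and without control replicate 2. Of all genes 13.9% were lower without overlap with all libraries, and 17.8% without control replicate 2. Their summed normalised counts were 393023, 589386 and 299717 in controls 1 to 3 and 233461 and 267258 in Tbx1cko 1 and 2, and their median log2 difference was -0.78, and -0.47 without control replicate 2. Of the 14 leukocyte markers, 12 were higher, and 11 without that library, with sums of 84374, 52581 and 65978 in controls and 80732 and 88607 in Tbx1cko. Without overlap 6 were higher and 0 lower in either case. Of all genes 14.2% were higher without overlap with all libraries, and 19.7% without control replicate 2. Of the 12 endothelial markers, 10 were lower in either case, with sums of 220848 to 321739.5 in controls and 201353 to 215411 in Tbx1cko. Of these 12 markers, 7 were lower without overlap in either case, against 13.9% and 17.8% of all genes. Higher without overlap was 1 of them, and 2 without control replicate 2. Of the 10 mural cell markers, 9 were lower in either case, with sums of 48702 to 60776 and 40088 to 41911. Of these markers 8 were lower without overlap with all libraries, and 9 without control replicate 2, against the same shares of all genes. Of the 8 platelet markers 3 were lower, and 2 without control replicate 2, with sums of 1418 to 2432 and 3266 to 3739. Without overlap 1 was lower and 2 were higher, and 1 and 3 without control replicate 2. By sign alone 47.6% of all genes were lower with all libraries, and 46.7% without control replicate 2.

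Fibroblast markers had 6 of 10 lower, and 9 of 10 without control replicate 2, and their sums overlapped between the groups with and without it. Cardiomyocyte markers had 4 of 10 lower with all libraries, and their sums were 10817, 18727 and 9584 in controls 1 to 3 and 13523 and 12128 in Tbx1cko 1 and 2. They overlapped through control replicate 2 alone. Without it 0 of 10 were lower and 9 were higher with the groups apart, against 19.7% of all genes, and the same count was higher at an unadjusted p under 0.05, against 3.39% of all genes, at a median log2 difference of 0.38. DESeq2 without control replicate 2 called 5 mural cell markers (Pdgfrb, Cspg4, Abcc9, Acta2 and Notch3) and 2 stress genes (Junb and Nr4a1), all lower, and the platelet marker Pf4, which was higher. That fit called 0.544% of all genes. None of these markers was at 0 in a library. The part of these cells and of handling in the values of the members was not tested.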

How the data were processed

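The signal that the authors deposited for each gene was its reads scaled by a per-library size factor. The submitters' processing notes name DESeq2 1.20.0, R 3.5.1, DESeq and STAR 2.5.2b with the build GRCm38 (mm10). No source used here states the read counter, annotation or strand setting. Every deposited value was a whole multiple of the library's smallest value above 0, within 0.01, so 100% of values gave whole reads. Members had 545 to 17451 reads per library.

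Genes with a mean of at least 10 were tested with limma 3.58.1 (R 4.3.3) on log2(normalised count + 1), a scale that understates changes of low genes, 2-sided, with a trended prior and genotype as the only term. P-values were adjusted by Benjamini and Hochberg over 14339 genes, at a threshold of 0.05. edgeR 4.0.16 (quasi-likelihood) and DESeq2 1.42.0 were run on the recovered reads as alternatives, and called 0 and 4 genes. DESeq2 gave some genes no adjusted p, among them Tbx1 without control replicate 2. Its shares of all genes count such genes as not called, so the share among genes with an adjusted p is higher. Positions, transcript lengths and GC content were matched by symbol to GENCODE M21, GRCm38 (16771 of 17638 matched). The GC correction subtracted from each library a loess (span 0.3) of its log2 deviations against GC percent. The limma fit was checked on simulated counts for the mean size of known changes. The simulated counts held no GC trend, so the check does not cover that feature of control replicate 2.

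The members and lists were chosen with earlier results of these data known. Named were all members, Tbx1, up to 4 genes per pathway list by unadjusted p, and each member's nearest pattern. Replicates were compared first: the chi-square per degree of freedom was at least 14.2 in each pair, so no pair was merged as repeat sequencing, and whether libraries share an animal is not known.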

Additional observations from a re-analysis of the deposited data

How the results depend on the processing

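Over 19 alternatives (pseudocounts, filters, TMM and quantile scaling, edgeR, DESeq2, GC correction, a replicate block and each library left out), 0 members passed the threshold in any, with a lowest adjusted p of 0.403. Nfkb1, Nfkb2, Rela, Relb, Nfkbia and Nfkbiz had a negative log2 difference in all 19. Rel, Tnfaip3, Birc3 and Traf1 changed sign in at least 1. Leaving out control replicate 2 gave -0.20 for Rel, -0.0273 for Tnfaip3 and -0.17 for Birc3. For the same 4 libraries edgeR and DESeq2 gave -0.20 each for Rel, -0.0415 and -0.0402 for Tnfaip3, and -0.19 and -0.18 for Birc3. GC correction of these libraries gave -0.30 for Rel, -0.0552 for Tnfaip3 and -0.20 for Birc3. GC correction with all libraries gave -0.29 for Rel, -0.16 for Birc3 and 0.0677 for Traf1. Birc3 was also -0.0235 with quantile normalisation, -0.0154 with edgeR and -0.0031 with DESeq2. Leaving out 1 library at a time, Rel ran from -0.20 to 0.76, Tnfaip3 from -0.0273 to 0.30, Birc3 from -0.17 to 0.18 and Traf1 from -0.23 to 0.0768. The causes were not tested.

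Over the same omissions the count of genes past the threshold ran from 0 to 3, the members lower from 6 to 10, the members' median from -0.23 to -0.14 and the target gene median from -0.19 to 0.18. For the 4 libraries other than control replicate 2, edgeR called 1 gene and DESeq2 78. DESeq2 with all libraries called 4 genes, Tbx1 among them (-1.95, adjusted p = 0.0349). For those 4 libraries the target gene median was -0.19 with limma, -0.21 with edgeR, -0.20 with DESeq2 and -0.22 with GC correction. The median of the other IkappaB proteins was 0.10 after GC correction of all libraries and -0.0454 after that of the 4.

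Replicate numbers 1 and 2 occur in both groups. The deviations of same-numbered libraries from their group means correlated at -0.0556 and -0.0461. The deviations of the 2 Tbx1cko libraries mirror each other, so these values cannot tell whether the numbers pair libraries. The labels name no shared animal or day, and whether the numbers pair libraries is not known. With a replicate block limma called 3 genes. Replicate number 3 occurs only in the controls, so this block gave the same log2 differences as leaving out control replicate 3. The replicate block with GC correction called 1, the median of the other IkappaB proteins was then 0.14, and the log2 differences were -0.35 for Rel, -0.21 for Birc3 and 0.14 for Traf1.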

Other observations

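Ratios of members within a library are free of its scaling factor. The ratio of Tnfaip3 to Nfkbia in normalised counts was 0.565, 0.323 and 0.560 in controls 1 to 3 and 0.660 and 0.700 in Tbx1cko 1 and 2, so both Tbx1cko libraries lay above every control. The mean log2 ratio was 0.54 higher in Tbx1cko with all libraries and 0.27 higher without control replicate 2. The ratio of Nfkb2 to Nfkb1 was 0.911, 0.957 and 0.806 in the controls and 0.795 and 0.729 in Tbx1cko, a difference of -0.22, and -0.17 without that library. Both had an exact permutation p of 0.2, taken as 2 times the 1-sided p. That is the smallest value that 3 libraries against 2 allow on this definition. The adjusted p of both was 0.4 over the 4 ratios computed. The ratio of Nfkbia to Rela differed by 0.16 (exact permutation p = 0.8, adjusted p = 0.8) and that of Rel to Rela by 0.96 (exact permutation p = 0.6, adjusted p = 0.8). Without control replicate 2 these were 0.00 and 0.09. The genes of each ratio differ in GC content, by -6.12 percentage points for Tnfaip3 less Nfkbia and 8.12 for Nfkb2 less Nfkb1. The GC difference was -4.53 for Nfkbia less Rela and, the largest, -16.3 for Rel less Rela. The part of GC content was not tested. The ratios were chosen after the values were seen.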
